A study of Saccharomyces cerevisiae with 24 samples.

Results

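The genes described here encode the machinery that carries proteins into mitochondria. They were chosen by name: every standard yeast gene name made of TIM, TOM or PAM and a number, except TIM11, together with SAM35, SAM37, SAM50, MIA40, ERV1, HOT13, OXA1, MAS1 and MAS2. The rule found 35 of the 7140 features in the count files. Of these, 33 encode import components, and TOM1, a ubiquitin ligase, and PAM1 were matched through their names only. Baker's yeast was moved from air to nitrogen gas, and polyadenylated RNA was sequenced after 0, 5, 10 and 30 min and after 60, 120, 180 and 240 min in 3 biological replicates of the time course, called courses 1, 2 and 3, which gave 24 libraries. All libraries came from yMH914, a MATa derivative of S288C in which the HAP1 gene was repaired, with the alleles ura3D0, his3D200, leu2D0 and lys2-128d. Cells grew in rich glucose medium without added ergosterol or unsaturated fatty acids. The sources differ on the culture before nitrogen: by the methods, the 0 min sample came from growing cells in air and the rest was then diluted for each time point, whereas the labels speak of a saturated culture that was diluted first. If the methods hold, nitrogen and dilution cannot be told apart in a comparison with 0 min, and flasks of 240 min and 30 min were diluted to different extents.

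Almost all mitochondrial proteins are made in the cytosol and cross the outer membrane through the TOM complex. From there the SAM complex inserts barrel proteins into the outer membrane, small Tim chaperones guide carriers to the TIM22 translocase, and the TIM23 translocase with its import motor takes proteins with a presequence into the matrix, where a processing peptidase cuts the presequence off. Small cysteine-rich proteins are trapped in the intermembrane space by a disulfide relay, in which Mia40 oxidizes the protein and Erv1 passes the electrons on to cytochrome c or to oxygen. Many messenger RNAs for mitochondrial proteins carry a binding site for the RNA-binding protein Puf3 after the stop codon.

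The Puf3 site TGTANATA, where N is any base, was searched on the gene's own strand in the 200 bases after the stop codon of the RefSeq R64 annotation. It was present in 22 of the 33 import genes (66.7%), against 843 of 5994 genes (14.1%). The sites of 8 genes are shown with the site in capitals and the surrounding bases in lower case: those with a site among the genes of smallest p over time, of largest change at 30 or 240 min, and of the electron path of the relay. They are shown because the members with a site and those without are compared further on.

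MIA40: atgatacaTGTAAATAcagtaata

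ERV1: gattctcgTGTATATAacactcca

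TIM9: ttttagcaTGTAAATAtaaagaga

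TIM22: tttatattTGTAAATAtcacctat

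TIM54: ataaaatcTGTAAATAtaataaaa

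TIM23: atggcgctTGTATATAgcatttga

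PAM18: ataagtctTGTAAATAacacggaa

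OXA1: tatctctcTGTAAATAtaaaaata

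In build R64 these stretches lie at chrXI:77080-77103 on the plus strand for MIA40, chrVII:544261-544284 on the plus strand for ERV1, chrV:117524-117547 on the plus strand for TIM9 and chrIV:67931-67954 on the minus strand for TIM22. Those of TIM54, TIM23 and OXA1 lie on the plus strand at chrX:335830-335853, chrXIV:663653-663676 and chrV:476241-476264, and that of PAM18 on the minus strand at chrXII:165419-165442. The fifth base was A in 6 of the 8 sites and T in those of ERV1 and TIM23. This does not hold for the sites not shown, where T was more frequent than A, and TOM7 and TIM17 had C. Sites were found in all 5 small Tim chaperone genes, all 3 genes of the TIM22 translocase and all 3 of the disulfide relay, and in none of the 3 SAM genes or the 2 peptidase genes. A match describes the letters and is not evidence of binding. Upstream of the start codon, the CCAAT box, searched on both strands in 300 bases, was present in 15 of 33 import genes (45.5%) and in 41.8% of all genes, and the stress element AGGGG in 3 of 33 (9.09%) and in 22.2% of all genes.

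The libraries held 4980240 to 16346113 counts, and the median library 9536701. A member had between 4 counts (TIM9 at 240 min in course 1) and 7376 counts (TOM70), and all 35 passed the filter on low counts that left 6262 genes. The labels were checked against marker genes. DAN1, a cell wall gene of anaerobic growth, was at 1921, 3625 and 4408 CPM (counts per 1000000 counts of the library after TMM scaling, explained below) at 240 min in courses 1, 2 and 3, against 1.51, 8.12 and 22.7 CPM at 0 min, and the deleted URA3, HIS3 and LEU2 had at most 2 counts. The stress gene HSP12 moved with time too, with log2 ratios to 0 min of 6.01, 5.73 and 8.11 at 30 min in courses 1, 2 and 3. The ratios were 2.79, 2.25 and 3.04 by 240 min, and the part of this response in the values of the import genes was not tested.

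Course 1 stood apart from the others before any comparison of times. Averaged over the 8 times, the median member differed by 0.37 on the log2 scale between course 1 and courses 2 and 3, and by 0.07 between courses 2 and 3. All 8 libraries of course 1 were above all 16 others for TOM6, TIM8 and TIM10, and below all of them for TOM70 and TOM1. These are 8.57% and 5.71% of the members, against 11.6% and 6.13% of all genes, so members were not set apart more often than other genes. The difference went with gene length: over the 35 members, Spearman's rho between coding length and the difference of course 1 was -0.58, and it was -0.57 over 5728 genes with a coding length. Of the 9 members with a coding length under 400 bases, TIM9 and TIM13 were lower in course 1. The change at 240 min against 0 min did not go with length in this way, with a rho of -0.04 over the members. These correlations are across genes that share the same libraries and are given as a description. The cause of the difference between courses was not tested.

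**Figure D1:**
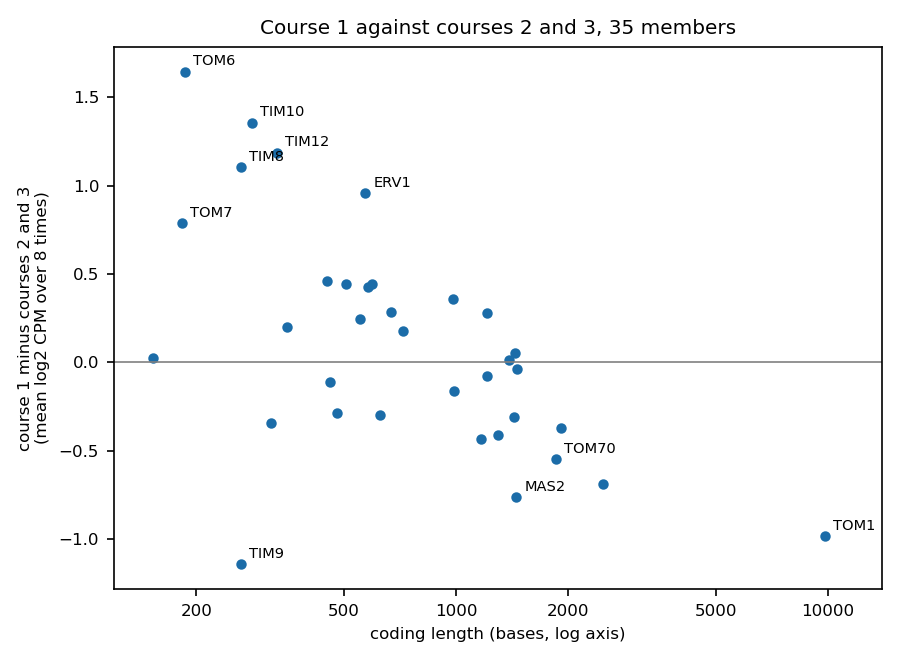
Each point is 1 of the 35 members. The horizontal axis is the coding length in bases on a log axis, and the vertical axis is the mean log2 CPM of the 8 libraries of course 1 minus that of the 16 libraries of courses 2 and 3. Short genes such as TOM6, TIM10, TIM12 and TIM8 lie over 1 above 0, TOM1 lies near -0.98, and TIM9 is the short gene far below 0.

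All CPM values are after TMM scaling, which sets libraries equal by the genes that change least and places the median gene near 0 at each time. Scaled to the total count instead, the median of all genes at 240 min over 0 min moved to 0.24 on the log2 scale, against -0.02 with TMM, and that of the import genes moved to 0.14, against -0.13 with TMM, so the direction of small changes depends on this choice. Levels are shares of the messenger RNA of a library, and a change in messenger RNA per cell cannot be seen. A gene was called when edgeR's quasi-likelihood test gave an adjusted p under 0.05 and the change was at least 2-fold. Where a gene passed the adjusted p but not the fold, this is said.

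Few import genes changed by 2-fold or more. Over all times 1 of 35 members was called, TIM9, against 19.8% of all genes tested, and it was lower, as were 10.5% of all genes. The same gene was the 1 called at 120 min (10.4% of all genes, and 5.37% lower) and at 240 min (15.6% of all genes, and 8.43% lower), each against 0 min. Without the fold minimum, 5 of 35 members passed over all times (26.5% of all genes): MIA40 and OXA1, higher at the time of their largest change, and TIM9, TIM22 and TIM54, lower. At 5 min against 0 min edgeR called 0 members (5.92% of all genes), with 6 at an unadjusted p under 0.05 and 0 called by DESeq2 (6.9% of all genes), and 0 passed without the fold minimum (8.8% of all genes). At 30 min against 0 min it again called 0 (17.8% of all genes), with 6 at an unadjusted p under 0.05 and 0 called by DESeq2 (19.1% of all genes), and 4 passed without the fold minimum (25.7% of all genes): MIA40, higher, and PAM18, TIM54 and MAS1, lower. At 120 min 3 passed without it (16.2% of all genes): MIA40, higher, and TIM9 and PAM18, lower. At 240 min against 0 min 4 passed without the fold minimum (23.2% of all genes): MIA40, higher, and TIM9, PAM18 and TIM21, lower.

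By libraries alone, all those of 240 min lay above all those of 0 min for 5 of 33 import genes and below for 6, against 17.3% and 17.6% of all genes. At 30 min these were 2 and 4 of 33 (16.2% and 17.7% of all genes), at 10 min 1 and 6 (12.6% and 14.5%), and at 120 min 1 and 3 (12.4% and 14.7%). With both directions together, groups without overlap, given for single genes below, were no more frequent at these 4 times than among all genes. Between 240 min and 30 min, 7 of 33 import genes lay wholly above and 2 wholly below, against 13.2% and 11% of all genes.

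Between 240 min and 30 min edgeR called 0 members (6.2% of all genes), with 8 at an unadjusted p under 0.05, and DESeq2 called 1, TIM9 (7.78% of all genes). Without the fold minimum 1 passed, TIM54, which was higher (10% of all genes). With the course as a block, TIM9 was called here too (9.98% of all genes). The block also raised the numbers without the fold minimum, to 20 of 35 members over all times (54.9% of all genes), and against 0 min to 8 after 5 min (21.6%), 13 after 30 min (45.4%), 12 after 120 min (35.1%) and 13 after 240 min (43.5%). At 240 min against 30 min the number was 10 (26.7%). Leaving out a course, in fits without the block, changed the numbers called, and all values below with a course left out come from such fits. Without course 2 or without course 3, course 1 and 1 other course remain, and the difference between them counts as spread. Without course 1, 5 members were called over all times (35.1% of all genes) and 3 at 240 min against 0 min (24.2%). Without course 2, 0 were called in either (5.38% and 5.93% of all genes), and without course 3 also 0 (7.55% and 8.52%).

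**Figure D2:**
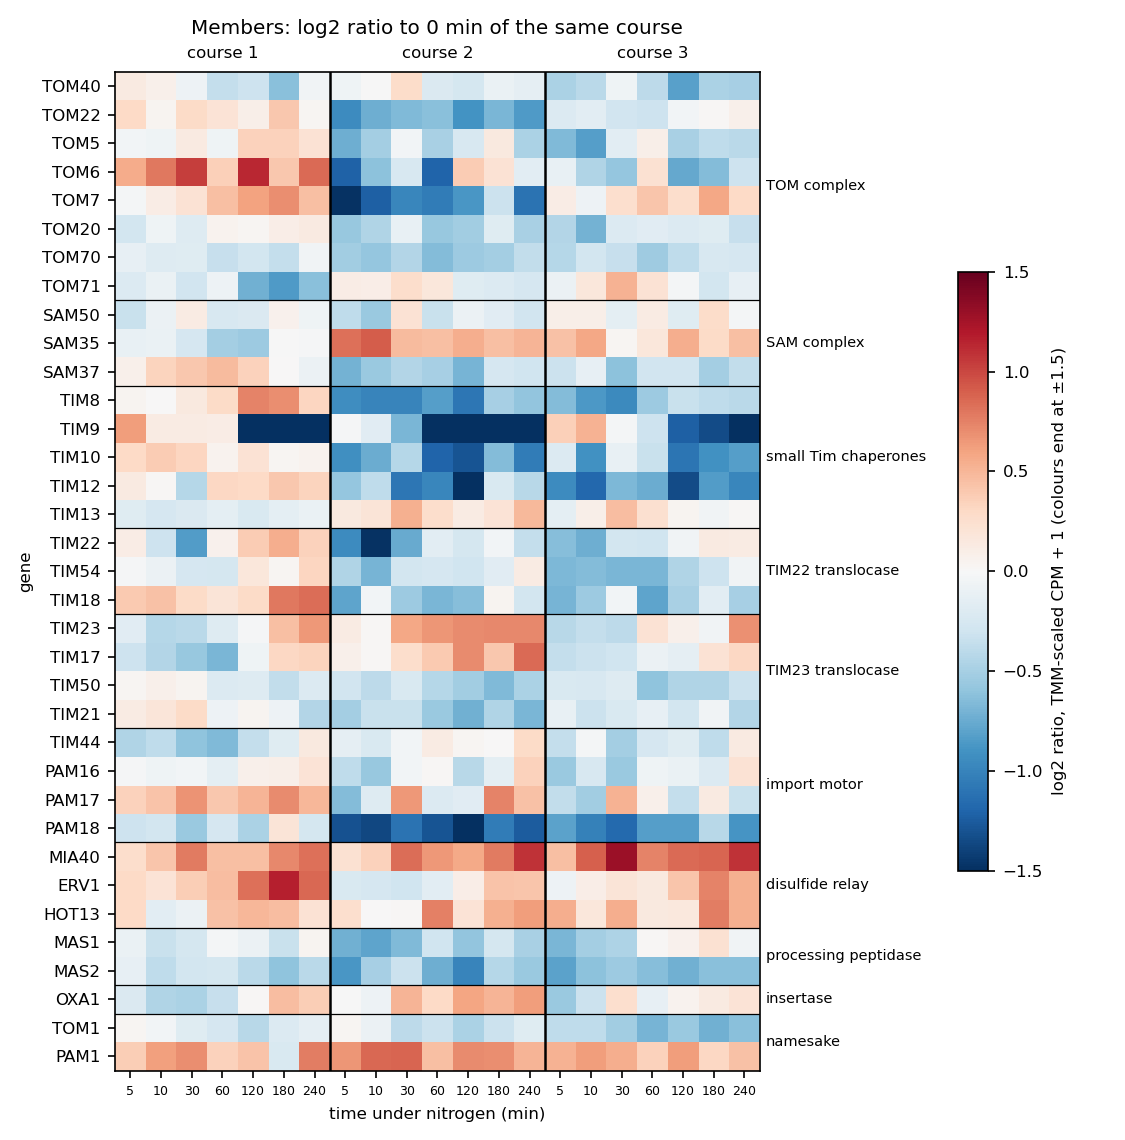
Rows are the 35 members by role and columns are the 7 times under nitrogen in courses 1, 2 and 3. Colour gives the log2 ratio to 0 min of the same course on TMM-scaled CPM plus 1, ending at 1.5 in either direction. The row of MIA40 is red in all 21 libraries, TIM9 is dark blue late in every course, PAM18 is blue except at 180 min of course 1, and SAM35 lies below 0 in course 1 and above 0 in courses 2 and 3.

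The 3 genes of the disulfide relay were each above their own 0 min level at 240 min in every course, and MIA40 passed the test. In every course 8 of 33 import genes were above their 0 min level at this time, against 28.7% of all genes. MIA40 (YKL195W, chrXI:75821-77032, plus strand) encodes the oxidoreductase that recognizes incoming cysteine-rich proteins. At 30 min it was at 391.5, 324.5 and 371.5 CPM in courses 1, 2 and 3, against 229, 181 and 153 CPM at 0 min. At 240 min it was at 405, 385 and 325 CPM in courses 1, 2 and 3. No library of either time overlapped with those of 0 min. The log2 fold change was 0.95 (SE 0.18) at 30 min, with an adjusted p of 0.00054 by edgeR, and 0.99 (SE 0.18) at 240 min, with an adjusted p of 5e-04, just short of 2-fold. It also passed at 10, 60, 120 and 180 min, with adjusted p values of 0.045, 0.027, 0.026 and 0.0038. Between 240 min and 30 min it changed by 0.04 (SE 0.18). RLE factors, total-count scaling, no filter on low counts and DESeq2 each put the change at 240 min over 2-fold (1.01, 1.23, 1.01 and 1.01 on the log2 scale), as did leaving out course 1 (1.16). Without course 2 the adjusted p at 240 min was 0.072 and without course 3 it was 0.034, and at 30 min these were 0.041, with a change over 2-fold, and 0.05.

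ERV1 encodes the sulfhydryl oxidase that takes up the electrons of Mia40. It was at 204, 111 and 98.7 CPM at 240 min in courses 1, 2 and 3, against 111, 83.0 and 68.1 CPM at 0 min. It was higher than its own 0 min in each course, while the level of course 1 was above the others at all 8 times, so that the groups overlapped. The log2 fold change was 0.66 (SE 0.45) at 240 min and 0.86 (SE 0.45) at 180 min, with adjusted p values of 0.36 and 0.21 by edgeR. With the course as a block these changes were 0.60 (SE 0.13) and 0.78 (SE 0.13), with adjusted p values of 0.00062 and 4.2e-05. HOT13, which encodes a zinc-binding protein that helps keep Mia40 in an oxidizable state, was at 19.9, 24.9 and 17.0 CPM at 240 min in courses 1, 2 and 3, against 17.0, 15.8 and 11.4 CPM at 0 min, a log2 fold change of 0.48 (SE 0.28) with an adjusted p of 0.25.

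The small Tim chaperones did not move together. TIM9 (YEL020W-A, chrV:117211-117474, plus strand) encodes a subunit of the chaperone complex that Tim9 forms with Tim10. It was at 1.58, 1.60 and 5.16 CPM at 120 min and at 0.476, 3.79 and 3.27 CPM at 240 min in courses 1, 2 and 3, against 6.69, 30.3 and 13.4 CPM at 0 min. These levels rest on 4, 27 and 48 counts at 240 min and on 71, 194 and 139 counts at 0 min. Every library of 120 min and of 240 min lay below every library of 0 min. At 180 min, with 1.14, 6.88 and 4.68 CPM, the highest library was above the lowest of 0 min, and the log2 fold change of -1.97 (SE 0.78) had an adjusted p of 0.084 by edgeR, or 0.0012 with the course as a block (-1.96, SE 0.45). In no course was it below its 0 min level at 5 min by more than 0.02 on the log2 scale, and the low levels began at 60 min in course 2 and at 120 min in the other two. The log2 fold change was -2.58 (SE 0.80) at 120 min and -2.73 (SE 0.81) at 240 min, with adjusted p values of 0.032 and 0.018 by edgeR. Against 30 min, 240 min was lower by a log2 fold change of -2.36 (SE 0.80, adjusted p 0.069), and with the course as a block this was -2.48 (SE 0.47, adjusted p 0.00035). Without course 2 or without course 3 the change at 240 min was -2.36 or -3.08 with adjusted p values of 0.27 and 0.17, and at 120 min it was -1.52 or -3.50 with adjusted p values of 0.69 and 0.18.

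URA3, which is deleted in this strain, ends 240 bases before the start codon of TIM9 on the same strand in R64. All 24 libraries carry that deletion, and its part in the level of TIM9 was not tested. TIM10, the partner of TIM9, was at 195.0, 71.5 and 64.9 CPM at 240 min in courses 1, 2 and 3, against 188, 149 and 116 CPM at 0 min. It was lower in courses 2 and 3 and level in course 1, with a log2 fold change of -0.45 (SE 0.66, adjusted p 0.75), or -0.66 (SE 0.23, adjusted p 0.021) with the course as a block. TIM8 and TIM13, which encode the second such pair, changed by -0.15 (SE 0.54) and 0.15 (SE 0.20) at 240 min, and TIM12, whose product docks the chaperones at the inner membrane, by -0.23 (SE 0.66), none with an adjusted p under 0.72.

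In the carrier translocase TIM22 and TIM54 fell early, and their libraries at 240 min overlapped with those of 0 min. TIM22, the channel subunit, was at 34.75, 28.4 and 36.65 CPM at 10 min and at 55.3, 63.35 and 67.0 CPM at 240 min in courses 1, 2 and 3, against 43.3, 81.15 and 61.35 CPM at 0 min. All libraries of 10 min lay below those of 0 min, and those of 240 min overlapped with 0 min. The log2 fold change was -0.90 (SE 0.26) at 10 min with an adjusted p of 0.018 by edgeR, and -0.00 (SE 0.25) at 240 min. Without course 1 the change at 10 min was -1.06 and called, and without course 2 or without course 3 the adjusted p was 0.60 or 0.27.

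TIM54, a receptor-like subunit of the same translocase, was at 188, 184 and 189 CPM at 240 min in courses 1, 2 and 3, against 126, 140 and 122 CPM at 30 min and 150.1, 169.5 and 196.5 CPM at 0 min. The libraries of 30 min lay below those of the other 2 times, and 240 min overlapped with 0 min. It fell by 0.41 (SE 0.14) on the log2 scale at 30 min against 0 min (adjusted p 0.040 by edgeR) and was higher by 0.53 (SE 0.14) at 240 min against 30 min (adjusted p 0.021). Without course 2 or without course 3 the adjusted p of the fall at 30 min was 0.22 or 0.68 and that of the later change 0.23 or 0.46. The fall at 30 min had an adjusted p of 0.054 with RLE factors, 0.070 with no filter and 0.58 with total-count scaling, where its largest change from 0 min was a rise, of 0.40. TIM18, a small partner subunit, changed by 0.07 (SE 0.31) at 240 min.

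In the TIM23 translocase the changes of the channel subunits TIM23 and TIM17 were above 0 at 240 min, and those of TIM50 and TIM21 below. TIM23, the presequence channel, was at 287, 197 and 225 CPM at 240 min in courses 1, 2 and 3, against 183, 119 and 139.6 CPM at 0 min, and TIM17, its partner in the channel, at 187, 234 and 205 CPM against 148.5, 129.7 and 165.6 CPM at 0 min. TIM50, the presequence receptor, was at 185, 237 and 237 CPM at 240 min, against 213, 330.2 and 295.5 CPM at 0 min. TIM21, which links the complex to the respiratory chain, was at 63.8, 63.9 and 66.0 CPM at 240 min, against 86.7, 103 and 89.8 CPM at 0 min. For each of TIM17, TIM23 and TIM21 all libraries of 240 min lay on 1 side of those of 0 min, and for TIM50 they overlapped.

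The log2 fold changes at 240 min were 0.68 (SE 0.24, adjusted p 0.050 by edgeR, not under the threshold) for TIM23, 0.50 (SE 0.21, adjusted p 0.11) for TIM17, -0.35 (SE 0.18, adjusted p 0.20) for TIM50 and -0.53 (SE 0.16, adjusted p 0.023) for TIM21. With the course as a block all 4 passed, at adjusted p values of 0.0030, 0.020, 0.016 and 0.0041. With total-count scaling TIM23 passed, at 0.93 and an adjusted p of 0.029, and TIM21 did not, at -0.26 and an adjusted p of 0.51. Without course 2 or without course 3 the adjusted p of TIM21 was 0.37 or 0.22. Within a library a ratio of 2 genes does not depend on the scaling. The ratio of TIM23 to TIM50 was 1.55, 0.833 and 0.949 at 240 min in courses 1, 2 and 3, against 0.860, 0.361 and 0.472 at 0 min, and that of TIM17 to TIM21 was 2.93, 3.65 and 3.11 at 240 min against 1.71, 1.26 and 1.84 at 0 min. These pairs were chosen after their values were seen. Each ratio was larger at 240 min in all 3 courses, and is given with no test.

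**Figure D3:**
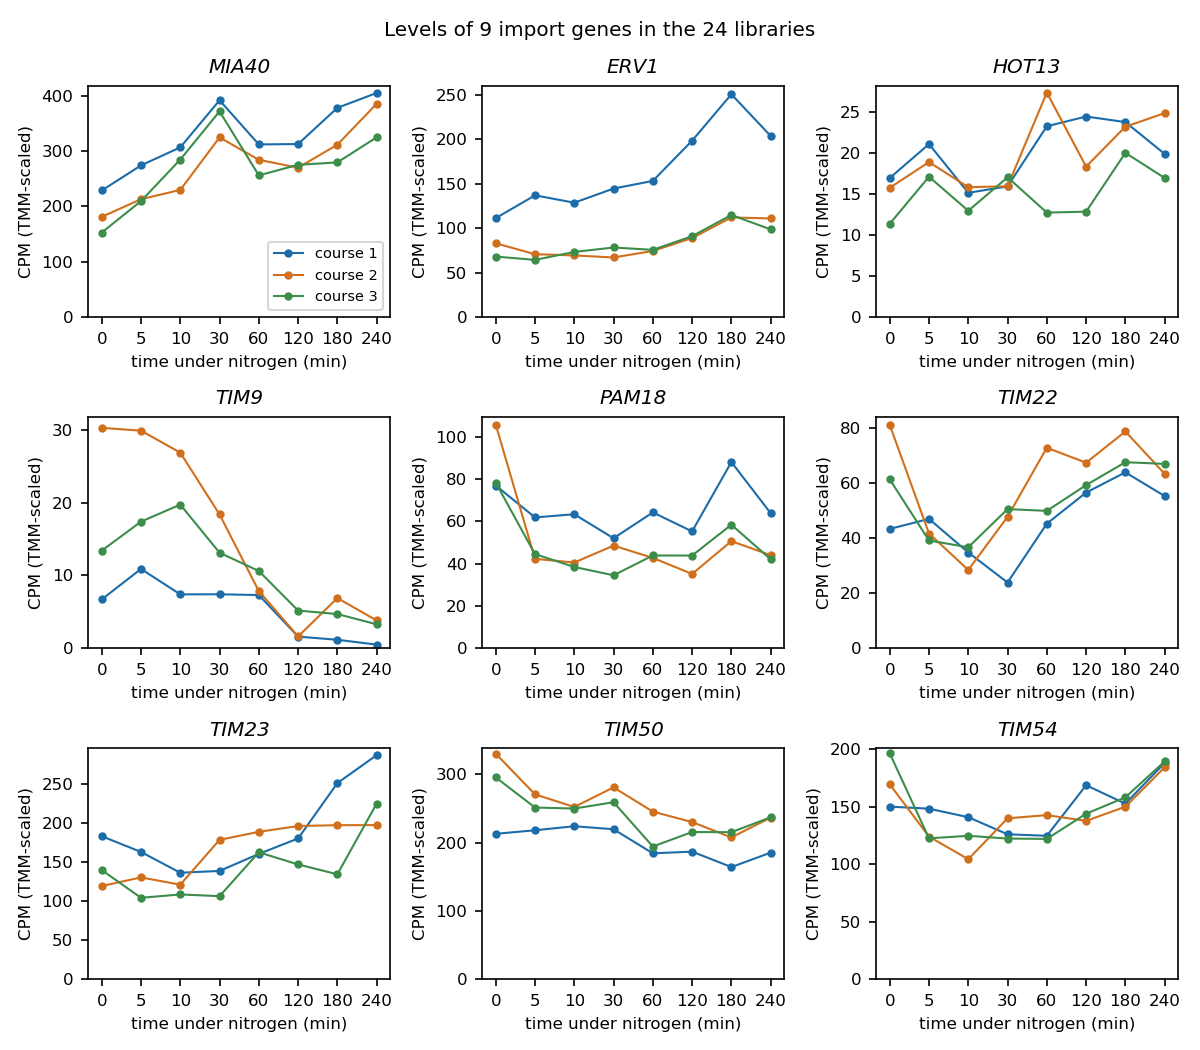
Each panel shows 1 of 9 import genes in all 24 libraries, with the 8 times under nitrogen in order on the horizontal axis (not to scale) and TMM-scaled CPM on the vertical axis from 0. Each line joins the libraries of 1 course. MIA40 climbs in every course between 0 and 30 min, TIM9 drops below 6 CPM in every course at 120 min, ERV1 of course 1 runs above the other two, and TIM22 and TIM54 dip between 5 and 30 min.

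Of the import motor, only PAM18 passed a test in a comparison with 0 min without the block. PAM18 (YLR008C, chrXII:165577-166083, minus strand) encodes the J-protein that stimulates the motor's Hsp70. It was at 51.99, 48.5 and 34.4 CPM at 30 min and at 63.8, 44.0 and 42.0 CPM at 240 min in courses 1, 2 and 3, against 76.9, 106 and 78.3 CPM at 0 min. All libraries of both times lay below those of 0 min, and the distance was smallest in course 1. The log2 fold change was -0.95 (SE 0.28, adjusted p 0.014 by edgeR) at 30 min and -0.80 (SE 0.27, adjusted p 0.041) at 240 min, and -0.99 (adjusted p 0.00012) and -0.85 (adjusted p 0.00061) with the course as a block. Leaving out course 1 put both over 2-fold, at -1.07 and -1.02, and without course 2 or without course 3 the adjusted p was 0.20 or 0.25 at 30 min and 0.52 or 0.32 at 240 min. With total-count scaling the adjusted p was 0.17 at 30 min and 0.36 at 240 min, and with RLE factors it was 0.052 at 240 min. PAM16, the J-like partner that holds Pam18, changed by 0.26 (SE 0.26) at 240 min, PAM17, an assembly subunit, by 0.22 (SE 0.29), and TIM44, the scaffold that brings Hsp70 to the channel, by 0.19 (SE 0.24), with no adjusted p under 0.59. At 30 min PAM17 was at 187, 163 and 192.5 CPM in courses 1, 2 and 3, against 116, 103.5 and 134 CPM at 0 min, without overlap. Its log2 fold change was 0.62 (SE 0.29) at 30 min and 0.53 (SE 0.29) at 180 min, with adjusted p values of 0.14 and 0.24 by edgeR, or 0.014 and 0.037 with the course as a block. TIM44 changed by 0.55 between 240 min and 30 min, with an adjusted p of 0.17, or 0.0036 with the block.

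None of the 8 TOM genes passed in any comparison on all courses with TMM scaling and no block. For TOM20 and TOM5 all libraries of 5 and 10 min lay below those of 0 min (10.2% and 14.5% of all genes). TOM20 changed by -0.43 (SE 0.18, adjusted p 0.2 by edgeR) at 5 min. At 10 min TOM5 changed by -0.48 (SE 0.19, adjusted p 0.088). With the block the adjusted p of TOM20 was 0.039 at 5 min and 0.037 at 10 min. That of TOM5 was 0.062 and 0.046. Over all times TOM40, TOM70 and TOM71 passed with the block, as did 54.9% of all genes. At 240 min against 0 min TOM40, the channel, changed by -0.25 (SE 0.24), the central receptor TOM22 by -0.27 (SE 0.20), the presequence receptor TOM20 by -0.21 (SE 0.18), and the small subunits TOM5, TOM6 and TOM7 by -0.23 (SE 0.19), 0.38 (SE 0.93) and -0.13 (SE 0.42). TOM70, the receptor for carriers, was at 291, 404 and 414 CPM at 60 min in courses 1, 2 and 3, against 370, 632.5 and 599 CPM at 0 min. It was lower than its own 0 min in each course, as were 29.5% of all genes, while the groups overlapped. The log2 fold change of -0.53 (SE 0.27) had an adjusted p of 0.21 by edgeR, or 7e-04 with the course as a block at -0.51 (SE 0.11). TOM71, a close relative of TOM70 with a lower level, was at 73.4, 101 and 97.6 CPM at 240 min, against 93.1, 143 and 153 CPM at 30 min in courses 1, 2 and 3, and at 114, 119.5 and 106 CPM at 0 min. The change from 30 min to 240 min was -0.52 (SE 0.22, adjusted p 0.16), or -0.51 (SE 0.14, adjusted p 0.0088) with the block. The ratio of TOM70 to TOM71 was 4.87, 4.87 and 5.15 at 240 min and 3.49, 3.24 and 3.09 at 30 min, against 3.25, 5.29 and 5.63 at 0 min.

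At 240 min the SAM genes changed little and not in 1 direction. SAM50, the barrel channel, changed by -0.13 (SE 0.17), SAM35, which binds the barrel proteins, by 0.30 (SE 0.19), and SAM37, which helps release them, by -0.26 (SE 0.26). SAM35 changed most at 10 min, by 0.46 (SE 0.19, adjusted p 0.12 by edgeR). It was higher than its own 0 min at all 7 later times in courses 2 and 3 and lower at all 7 in course 1. At 180 and 240 min its log2 ratios in course 1 were only -0.0078 and -0.015. The matrix processing peptidase has the subunits MAS1 and MAS2. MAS1 was at 73.3, 70.3 and 63.9 CPM at 30 min, against 88.05, 112 and 88.3 CPM at 0 min in courses 1, 2 and 3, and no library of these times overlapped. It fell by 0.47 (SE 0.16, adjusted p 0.036 by edgeR) at 30 min and changed by -0.17 (SE 0.16) at 240 min. With total-count scaling the change at 30 min was -0.23 with an adjusted p of 0.48, and without course 2 or without course 3 the adjusted p was 0.52 or 0.26. MAS2 was lower than its own 0 min in all 21 libraries under nitrogen, where 32.1% of all genes were lower in every course at 240 min. It was at 53.6, 96.1 and 96.2 CPM at 240 min, against 71.4, 142 and 149 CPM at 0 min, a log2 fold change of -0.56 (SE 0.35, adjusted p 0.31), or -0.54 (SE 0.15, adjusted p 0.0046) with the course as a block.

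OXA1 encodes the insertase that places proteins made in the matrix into the inner membrane. It was at 293, 279 and 269 CPM at 240 min in courses 1, 2 and 3, against 225.5, 179.9 and 234.5 CPM at 0 min, with all libraries of 240 min above those of 0 min. It passed over all times (adjusted p 0.025 by edgeR), and its largest change, at 240 min, was 0.39 (SE 0.18), with an adjusted p of 0.13 for that time alone. Without course 2 its largest change was a fall, of -0.37, at an adjusted p of 0.67 over all times. Of the 2 genes matched through their names only, PAM1 changed by 0.56 (SE 0.34, adjusted p 0.29) and TOM1 by -0.36 (SE 0.43, adjusted p 0.67) at 240 min, and with the block these were 0.59 (SE 0.15, adjusted p 0.0030) and -0.32 (SE 0.12, adjusted p 0.027).

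**Figure D4:**
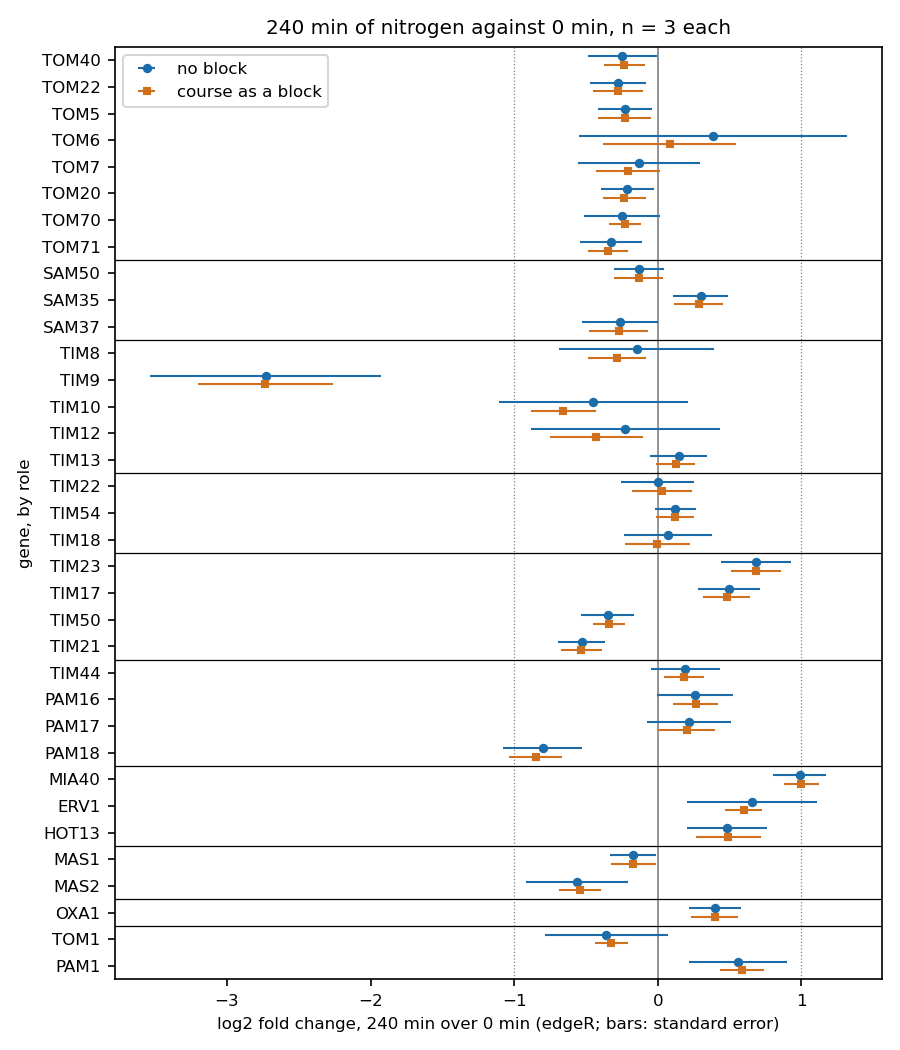
Points give the log2 fold change of 240 min over 0 min for the 35 members by role, with bars of 1 standard error and n = 3 libraries at each time. Circles are the edgeR fit without the course and squares the fit with the course as a block, and dotted lines mark 2-fold. TIM9 lies near -2.73, MIA40 close to the upper 2-fold line, and the bars of TOM6, TIM8, TIM10, TIM12 and ERV1 shrink most with the block.

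Levels per coding length, in CPM per kilobase, are given as a description. The difference of course 1 went with gene length, so the order of the genes is uncertain. At 240 min the highest means were TOM7 at 487 ± 216, TOM5 at 438 ± 50.2, TIM17 at 437.5 ± 49.1 and TIM10 at 392 ± 260 (SD, n = 3 each), which did not differ beyond their spread. This order holds the difference of course 1: TOM7 was at 735.5, 345 and 380 in courses 1, 2 and 3 and TIM10 at 691, 254 and 230, while TIM17 was at 392.5, 490 and 430, above both in courses 2 and 3. At 0 min the highest means were TIM10 at 535 ± 129, TOM7 at 533 ± 222 and TOM5 at 514 ± 82.9, which again did not differ beyond their spread. MIA40 was at 306.5 ± 34.5 at 240 min and 155 ± 31.7 at 0 min. The lowest import genes at 0 min were SAM50 at 31.4 ± 1.68 and SAM37 at 37.5 ± 3.86.

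Medians of the 22 import genes with a Puf3 site and of the 11 without are given as a description, with no test of a difference. At 5 min against 0 min their median log2 fold changes were -0.23 and -0.29, and 17 of 22 and 10 of 11 were below 0. At 240 min the medians were 0.10 with a site and -0.26 without, and 12 of 22 and 2 of 11 were above 0. By library, the medians at 5 min were 0.08 with a site and -0.10 without in course 1, -0.51 and -0.51 in course 2, and -0.39 and -0.23 in course 3. In course 1 the median at 240 min was 0.33 with a site and -0.07 without, against -0.15 and -0.37 in course 2 and -0.18 and -0.12 in course 3, so that in course 3 the order was turned. The short genes that are high in course 1, TOM6, TIM8, TIM10 and TIM12, all have a site. The messenger RNA of PUF3 itself was at 43.7, 66.0 and 46.8 CPM at 240 min in courses 1, 2 and 3, against 43.5, 112 and 71.1 CPM at 0 min. A site was also present in 76 of 86 mitochondrial ribosomal protein genes (88.4%) and in 2 of 22 genes of the respiratory chain (9.09%).

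Fitted in a single course with DESeq2 as a quadratic in time, with a 2-fold range on floored counts, 3 members were called in course 1 (TIM9, TIM23 and ERV1), 3 in course 2 (TIM9, TIM23 and TIM17) and 1 in course 3 (TIM9). These were 3 of 8, 3 of 17 and 1 of 9 members with such a range in courses 1, 2 and 3, where 24.5%, 19.5% and 14% of all genes with such a range were called. The adjusted p of TIM9 was 3.2e-07, 3.5e-05 and 4.1e-06 in courses 1, 2 and 3, with ranges of 2.88-fold, 7.75-fold and 5.35-fold. MIA40 had ranges of 2.02-fold, 2.59-fold and 2.88-fold and was not called in any single course (adjusted p 0.35, 0.12 and 0.85).

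While 14 of 22 respiratory chain genes were called lower at 240 min, 1 of 33 import genes was, where 8.43% of all genes were called lower and 7.14% higher. Smaller falls, below the 2-fold minimum, are not in these counts. At 240 min against 0 min the median log2 fold change was -0.13 over the 33 import genes, and 0.03 over 86 mitochondrial ribosomal protein genes, of which 2 were called higher, and -2.43 over 22 respiratory chain subunits, of which 1 was called higher. The median over all genes was -0.02. At 30 min these medians were -0.14, 0.28 and -0.52, against 0.01 over all genes. In the libraries, the import genes had a median of -0.02 (course 1), -0.51 (course 2) and -0.36 (course 3) at 5 min, and of 0.14, -0.29 and -0.12 at 240 min. The summed level of the 33 genes was 4326, 4118 and 4038 CPM at 240 min in courses 1, 2 and 3, against 3738, 4289 and 4109 CPM at 0 min.

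**Figure D5:**
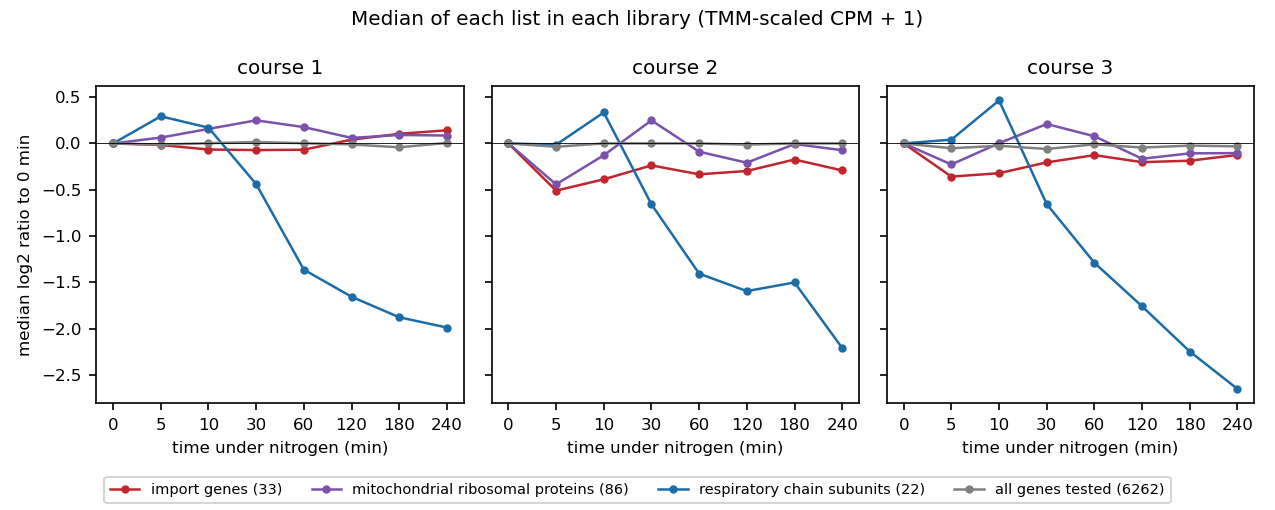
Each panel is 1 course, with the 8 times in order on the horizontal axis (not to scale) and the median log2 ratio to 0 min on the vertical axis, for 33 import genes, 86 mitochondrial ribosomal protein genes, 22 respiratory chain genes and all 6262 genes tested. The respiratory chain ends near -2 or below in every course, while the import genes stay between -0.51 and 0.14.

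Of 20 genes that work with the import machinery but lie outside the name rule, 2 were called over all times (19.8% of all genes). Both were higher, as were 9.31% of all genes. MDM10, a barrel protein of the SAM complex and of the tether to the endoplasmic reticulum, rose by 1.19 (SE 0.18, adjusted p 6.4e-05 by edgeR) on the log2 scale at 240 min. It was the 1 of the 20 called at that time (15.6% of all genes, and 7.14% higher). MDJ1, a J-protein of the matrix, rose most at 10 min, by 1.64, with an adjusted p of 0.0012 over all times. HSP60, the matrix chaperonin, changed by 1.17 (SE 0.52, adjusted p 0.12) at 240 min, or 1.04 (SE 0.21, adjusted p 0.00035) with the block. Its log2 ratios to 0 min in courses 1, 2 and 3 were 0.55, 1.30 and 1.41 at 240 min. They were -0.01, 0.94 and 1.27 at 120 min. The paper, from 1 course, places HSP60 among genes with little response. With the block HSP60, higher, and SOM1, lower, were also called over all times. In that fit 54.9% of all genes passed without the fold minimum. SOM1, a subunit of the inner membrane peptidase, fell by 1.91 (SE 0.51, adjusted p 0.020 by edgeR) on the log2 scale at 240 min against 30 min and was the 1 of the 20 called, where 3% of all genes were lower. The lowest of the 20 at 240 min were SOM1 at -0.97 (SE 0.49, adjusted p 0.19) and the aminopeptidase gene ICP55 at -0.43 (SE 0.22, adjusted p 0.18).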

How the data were processed

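RNA-seq counts were used for 24 libraries, 1 for each of 8 times in each of 3 courses. The deposited counts were made by the authors, who aligned the reads to build R64 of S. cerevisiae with TopHat2 and assigned them to features with HTSeq. Tool versions are not given in the sources used here. The paper states the library preparation for 1 course. Gene names, lengths and sequences came from RefSeq R64. Members and lists were chosen with earlier results of these data known. The edgeR 4.0.16 quasi-likelihood test (R 4.3.3) was fitted on all libraries with TMM factors, filterByExpr and time as a factor, with Benjamini-Hochberg adjustment over 6262 genes (biological coefficient of variation 0.59, 16 residual degrees of freedom). Per-library ratios used log2(CPM + 1). DESeq2 1.42.0 was an alternative and gave the fit of single courses, for which counts under 20 were set to 20. Genes given library by library were the 6 members with the smallest p over time, the largest rise and fall at 30 and 240 min, TOM70, TOM71, MIA40 and ERV1. TIM10, TIM17, TIM50, TIM21, HOT13, MAS1, MAS2, PAM17, PUF3 and HSP60 were added after their values were seen. So were the early values of TOM5, TOM20 and SAM35. Course numbers were taken to pair the libraries in the fit with the block. Residual correlations within a course were 0.772 to 0.922, 0.591 to 0.767 and 0.477 to 0.772 in courses 1, 2 and 3 over 28 pairs each. Over the members alone they were 0.585 to 0.959, -0.075 to 0.842 and 0.309 to 0.882. Residuals were taken from the mean of each time, so the difference of course 1 enters those of courses 2 and 3. The correlations in courses 2 and 3 therefore cannot show that their numbers pair the libraries. Reads of courses 2 and 3 outside features were left out. Only the edgeR fit without the block was tested on simulated counts, for 240 min against 0 min. Those counts had less spread than the data and no difference between courses, so the test does not show how the fits do here.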

Additional observations from a re-analysis of the deposited data

How the results depend on the processing

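TIM9 kept its direction in every alternative run. The 1 member called over all times became 2 with RLE factors, total-count scaling, no filter or DESeq2, 5 with no fold minimum, and 0 to 5 with a course left out. At 240 min against 0 min the 1 call became 2 with the same 4 settings, 4 with no fold minimum, and 0 to 3 with a course left out. The share of all genes called moved too. Over all times it went from 19.8% to 35.1%, 5.38% and 7.55% without courses 1, 2 and 3. For 240 min it went from 15.6% to 24.2%, 5.93% and 8.52%. Such shares are not given for the other comparisons. A changed number of members called is thus not a result about the members alone. At 120 min the 1 call became 3 with no fold minimum and 0 to 4 with a course left out. At 30 min the 0 calls became 1 with total-count scaling, 4 with no fold minimum and 0 to 2 with a course left out, and at 5 min 0 to 1 with a course left out. At 240 min against 30 min the 0 calls became 1 with the replicate block, with DESeq2 or with no fold minimum, and 0 to 1 with a course left out. The replicate block changed none of the other 5 counts at the 2-fold minimum. The replicate block with no fold minimum, added after the data were seen, gave 20 members over all times. Against 0 min it gave 8 (5 min), 13 (30 min), 12 (120 min) and 13 (240 min), and against 30 min it gave 10 (240 min). In a single course the 3 members called became 1 in course 3 and 5 with no fold minimum.

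With total-count scaling the median log2 ratio of the import genes was -0.21 at 10 min in course 2. For courses 1, 2 and 3 it was 0.17, -0.064 and 0.036 at 30 min, then 0.20, -0.044 and 0.19 at 60 min, then 0.22, -0.056 and 0.10 at 120 min. For courses 2 and 3 it was 0.066 and 0.045 at 180 min, then -0.016 and 0.20 at 240 min. In course 1 it was 0.057 at 5 min, 0.041 at 10 min and 0.33 at 240 min, and in course 3 -0.17 at both 5 and 10 min. The largest change from 0 min turned to a rise for TIM54 (0.40) and TOM71 (0.39) with total-count scaling. With a course left out it ranged from -0.51 to 0.47 for TOM71 and from -0.37 to 0.52 for OXA1. In these 3 genes another time then held the largest change. TIM9, with as few as 4 counts, is the member that depth limits most.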
